A study of Homo sapiens with 2 samples.

Results

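The 6 genes DLX1 to DLX6 encode the homeodomain transcription factors related to Distal-less of the fruit fly, and in the human genome they lie as 3 pairs. They were followed here in H3K27me3 ChIP-seq of HCT116, an established human colorectal carcinoma cell line. H3K27me3 is the trimethylation of lysine 27 on histone H3. The data formed 1 group of 2 libraries, described as biological replicates, from cells crosslinked with formaldehyde and precipitated with an H3K27me3 antibody; neither an input library nor a second cell type was used here. With no measure of genes or transcripts in the files, the identity of the cells could not be checked against markers.

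Members were defined by position, on hg19 (GRCh37). The span of DLX1 and DLX2 was chr2:172950001-172968000, that of DLX5 and DLX6 was chr7:96635001-96655000, and that of DLX3 and DLX4 was chr17:48046001-48073000. These held 18, 20 and 27 bins of 1 kb, or 65 bins among the 2600564 autosomal bins listed in at least 1 library. Levels are reads in a bin divided by the mean of that library's listed autosomal bins, so that 1 is the autosomal mean, and a bin not listed counted as 0. That mean was 22.0 reads per bin in replicate 1 and 37.5 in replicate 2, from 53187504 and 97031399 reads in total.

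Polycomb repressive complex 2 deposits H3K27me3, and the mark is known for covering genes of developmental transcription factors in cells that do not use them, often around starts rich in CpG dinucleotides. The genes of a DLX pair are transcribed towards each other, so that the gene starts lie at the outer ends of the span and the shared stretch between the genes holds enhancers. DLX1, DLX2, DLX5 and DLX6 act in forebrain interneurons and in the jaw, DLX5 also in bone, and DLX3 acts in the epidermis, hair, teeth and placenta. DLX4 is the partner of DLX3. Along the chromosome the order was DLX1 then DLX2, DLX6 then DLX5, and DLX4 then DLX3, so the "lower" end named below is that of DLX1, DLX6 or DLX4.

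RefSeq promoter sequences (GRCh38.p14) were held for 3 of the 6 genes: DLX1, DLX2 and DLX6. All 3 are shown, and the capitals mark CpG dinucleotides. They belong to the pair with the lowest and the pair with the highest level of the mark. Each gives the 250 bases before the annotated start, 5′ to 3′ on the gene's strand. On GRCh38.p14, which is not the build of the reads, they lie at chr2:172085257-172085506 (plus strand), chr2:172102901-172103150 (minus strand) and chr7:97005303-97005552 (plus strand).
DLX1: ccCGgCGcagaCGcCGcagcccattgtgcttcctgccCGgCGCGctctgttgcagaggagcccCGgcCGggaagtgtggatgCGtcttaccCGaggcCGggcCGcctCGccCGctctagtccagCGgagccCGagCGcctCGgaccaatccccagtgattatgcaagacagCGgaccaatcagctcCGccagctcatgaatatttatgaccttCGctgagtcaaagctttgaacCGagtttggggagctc
DLX2: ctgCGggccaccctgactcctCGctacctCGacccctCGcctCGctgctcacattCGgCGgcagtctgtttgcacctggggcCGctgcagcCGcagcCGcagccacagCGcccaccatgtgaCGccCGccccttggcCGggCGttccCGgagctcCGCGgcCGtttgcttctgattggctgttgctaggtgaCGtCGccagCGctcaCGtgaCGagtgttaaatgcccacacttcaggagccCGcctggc
DLX6: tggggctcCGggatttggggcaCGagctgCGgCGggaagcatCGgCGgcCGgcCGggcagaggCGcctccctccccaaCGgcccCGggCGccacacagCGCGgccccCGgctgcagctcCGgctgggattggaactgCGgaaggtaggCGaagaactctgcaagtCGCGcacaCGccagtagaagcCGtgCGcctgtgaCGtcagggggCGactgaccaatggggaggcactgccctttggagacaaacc

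All 3 promoters were rich in CpG. DLX1 held 23 CpG dinucleotides at a GC content of 63.6%, DLX2 held 25 at 68%, and DLX6 held 25 at 70%, against a median of 11 CpG and 58% GC over 35116 promoters. At least 23 CpG were found in 25.8% of those promoters and at least 25 in 21.6%. The ratio of observed to expected CpG was 0.914 for DLX1, 0.886 for DLX2 and 0.821 for DLX6. A CCAAT box, searched as CCAAT or ATTGG to cover both strands, occurred 2 times before DLX1, 1 time before DLX2 and 2 times before DLX6, and at least 1 was present in 32.0% of all promoters. TAATTA, the core letters that DLX homeodomains are known to bind and the same on both strands, occurred in none of the 3 and in 4.35% of all promoters. The long noncoding RNA gene DLX6-AS1, which overlaps DLX6 and starts between DLX6 and DLX5, had 3 CpG at 35.2% GC in the same window and 1 TAATTA. In CpG content, then, the promoters of the pair with little H3K27me3 and that of DLX6 were alike within 2 CpG. The outermost 1 kb bin at the DLX6 end stood at only 0.364 in replicate 1 and 0.506 in replicate 2. The likeness therefore does not compare a start known to be marked with unmarked ones.

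The 3 pairs carried the mark at very different levels. DLX5 and DLX6 stood highest, at 3.75 in replicate 1 and 3.93 in replicate 2 (3.84 ± 0.130, SD, n = 2), from 1649 and 2951 reads. DLX3 and DLX4 followed at 2.33 and 2.31 (2.32 ± 0.00951, SD, n = 2), from 1382 and 2344 reads. DLX1 and DLX2 stood below the autosomal mean at 0.353 and 0.480 (0.417 ± 0.0891, SD, n = 2), from 140 and 324 reads. The order was the same in each library and the values of different pairs did not overlap.

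Counting intervals left the order in place. Reads varied 2.51 times as much between the libraries as single reads would, so Poisson 95% intervals were widened 1.58 times. They cover counting error and the scatter of single 1 kb bins between libraries, not differences shared by a whole span. In replicate 1 they ran from 3.46 to 4.04 for DLX5 and DLX6, from 2.13 to 2.53 for DLX3 and DLX4, and from 0.265 to 0.454 for DLX1 and DLX2. In replicate 2 they ran from 3.71 to 4.16, from 2.17 to 2.46 and from 0.399 to 0.567. For DLX1 and DLX2 the level of each library lay outside the interval of the other.

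As ratios, DLX5 and DLX6 exceeded DLX1 and DLX2 by 10.6-fold in replicate 1 (95% counting interval 8.07 to 13.9) and 8.20-fold in replicate 2 (6.83 to 9.83). DLX3 and DLX4 exceeded DLX1 and DLX2 by 6.58-fold (5.00 to 8.67) and 4.82-fold (4.01 to 5.80). DLX5 and DLX6 exceeded DLX3 and DLX4 by 1.61-fold (1.44 to 1.80) and 1.70-fold (1.56 to 1.85). The intervals of the ratios were widened in the same way. The smallest gap between pairs in a library was 1.42, for the last of these ratios, which was 7.74 times the larger difference between replicates of its pairs. An exact sign-flip permutation test over the libraries, two-sided, gave p = 0.5 for each of the 3 ratios, before and after adjustment, the smallest value this test can give with 2 libraries, so it could not reach 0.05.

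**Figure D1:**
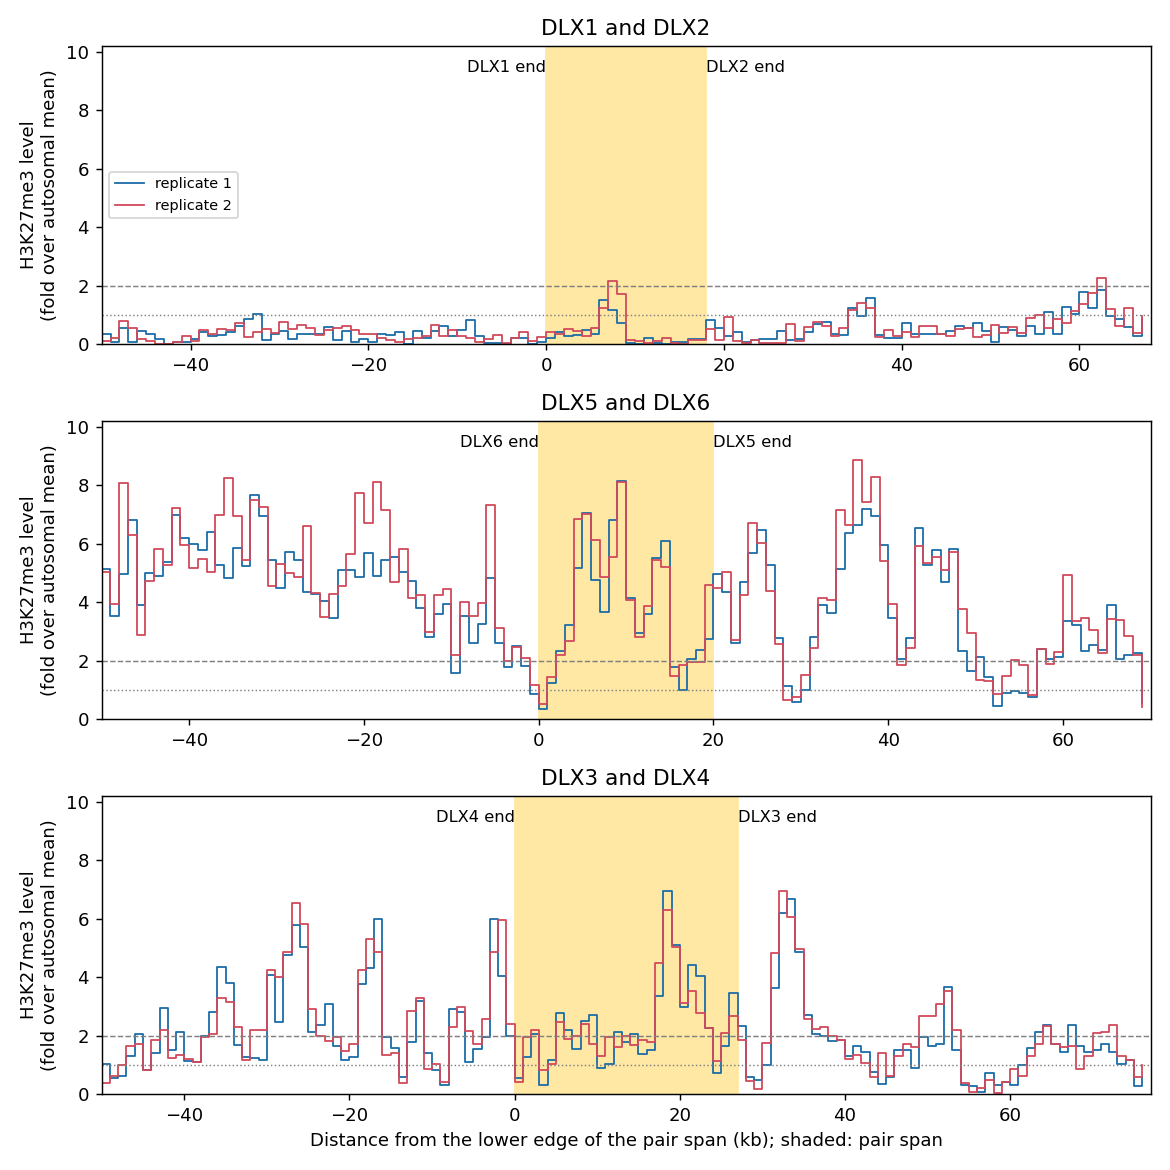
H3K27me3 level (fold over the autosomal mean, y axis) of each 1 kb bin against the distance from the lower edge of the pair span in kb (x axis), for the 3 pairs with 50 kb on each side; blue and red lines are replicates 1 and 2, the span is shaded, and the dashed and dotted lines mark levels of 2 and 1. The span of DLX5 and DLX6 lies in a stretch mostly above 2, that of DLX3 and DLX4 alternates between narrow peaks and bins near 2, and that of DLX1 and DLX2 stays under 2.2.

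Against the genome, DLX5 and DLX6 lay high, though not at the extreme. Only 5.87% of the 2062047 autosomal windows of 20 kb with each bin listed in at least 1 library reached its level in replicate 1, and 6.14% did so in replicate 2. Windows of each length were taken at steps of 1 kb and so overlap. The level of DLX3 and DLX4 was reached by 15.3% and 16.7% of windows of 27 kb. DLX1 and DLX2 were ordinary: 59.2% and 51.9% of windows of 18 kb stood as high or higher, and the median window was 0.477 and 0.514. A mean level of at least 2 in both libraries was found in 17.1% of windows of 18 kb, 17.4% of 20 kb and 18.4% of 27 kb, so the marked state of DLX5 and DLX6 and of DLX3 and DLX4 is shared with a sizeable part of the genome.

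**Figure D2:**
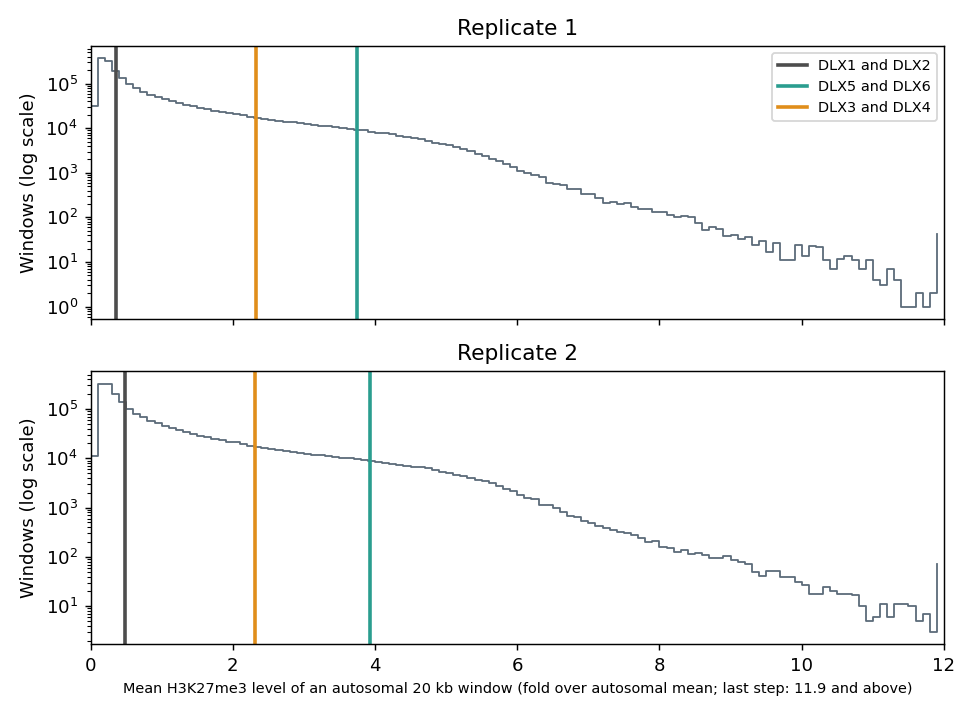
Number of autosomal 20 kb windows (y axis, log scale) by mean H3K27me3 level (x axis, fold over the autosomal mean) in replicates 1 and 2, with a coloured line at the level of each pair. DLX1 and DLX2, at 0.353 and 0.480, fall above the most common window levels, from 0.1 to 0.3. DLX5 and DLX6 at 3.75 and 3.93 fall in the upper tail but below its end. The lines of the pairs other than DLX5 and DLX6 come from spans of 18 and 27 kb. Windows were taken at steps of 1 kb and so overlap.

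Bins were called enriched where, in both libraries, the level was at least 2 and the adjusted p was under 0.05 (Poisson test of the reads over the library mean, one-sided, with Benjamini-Hochberg adjustment across all autosomal bins). This held for 12.7% of the listed autosomal bins. Among members it held for 14 of the 20 bins of DLX5 and DLX6 (70%), for 11 of the 27 bins of DLX3 and DLX4 (40.7%), and for 0 of the 18 bins of DLX1 and DLX2. At a fold minimum of 3, met by 7.64% of all bins, 10 bins of DLX5 and DLX6 remained and only 4 of DLX3 and DLX4. For DLX1 and DLX2 the Poisson test also gave 0 bins at an unadjusted p under 0.05 in both libraries. In replicate 2 alone 1 bin of that pair was called. At the other extreme, 13 of the 18 bins of DLX1 and DLX2 were under 0.5 in both libraries, against 54.2% of all bins, and 0 bins of the other pairs were. In single bins, then, DLX1 and DLX2 resembled the unmarked majority of the genome.

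DLX1 and DLX2, regulators of interneuron development, had a span mostly under a level of 0.5, with a single rise in its middle. The 5 kb at the DLX1 end stood at 0.345 and 0.400, and the 5 kb at the DLX2 end at 0.109 and 0.112. Between them the 7th, 8th and 9th bins from the DLX1 end rose to 1.50, 1.18 and 0.727 in replicate 1 and to 1.23, 2.16 and 1.73 in replicate 2. The highest of these, chr2:172957001-172958000 in replicate 2, held 81 reads. From there to the DLX2 end, chr2:172959001-172968000, all 9 bins were under 0.5 in both libraries, with means of 0.0959 and 0.107 and 0 to 8 reads per bin. In such a bin a count of 0 allows a level of up to 0.136 in replicate 1 and 0.0799 in replicate 2, for 3 reads. Fewer marked nucleosomes and fewer mappable reads cannot be told apart here without an input library.

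The surroundings of DLX1 and DLX2 were also poor in the mark, though the upper flank stood above the span. The 50 kb below, the side of METAP1D, a mitochondrial methionine aminopeptidase gene and the next protein-coding gene there, stood at 0.311 and 0.337. The 50 kb above, the side of the noncoding gene DLX2-DT, stood at 0.603 and 0.631. Of these 100 flanking bins 0 were enriched in both libraries. The upper flank rose outwards, from 0.323 and 0.277 in its first 10 kb to 1.07 and 1.17 in its last 10 kb, and its highest bin reached 1.86 and 2.26. The nearest enriched bin lay 50 kb above the span and the nearest below was 493 kb away. An enriched domain of at least 10 kb, joined across gaps of at most 5 bins, was first met 774 kb above, over 30 kb at 3.51 and 3.89.

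DLX5 and DLX6, which act in the jaw and forebrain and, for DLX5, in bone, carried the mark over most of their span. The outermost bin at the DLX6 end, chr7:96635001-96636000, held only 8 and 19 reads, a level of 0.364 and 0.506. Just inside the level climbed, through 1.23 and 1.44, 2.32 and 2.21, and 3.23 and 2.69, to 5.18 and 6.85 in the fifth bin. The 13 bins of chr7:96637001-96650000 were all enriched in both libraries, at 4.88 and 4.99. The highest of them was chr7:96644001-96645000, in the middle of the span, at 8.14 in replicate 1 and 8.13 in replicate 2, from 179 and 305 reads. The stretch between the outer 5 kb ends thus stood at 5.27 and 5.31, above either gene end in both libraries. The other pairs shared this at other levels. Their middle stood at 0.511 and 0.759 for DLX1 and DLX2, and at 2.67 and 2.65 for DLX3 and DLX4.

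At the DLX5 end the level dropped to 1.77 and 1.49 at the 16th bin and 1.00 and 1.86 at the 17th. It then came back to 2.73 and 4.58 in the outermost bin, which held 60 and 172 reads. This bin differed most between the libraries by size, but the binomial test of the split of reads, Benjamini-Hochberg adjusted over all listed autosomal bins, did not call it. The test called 0 of the 65 member bins and 2.45% of all bins. At an unadjusted p under 0.05 it gave 2 bins of DLX1 and DLX2, 3 of DLX5 and DLX6 and 6 of DLX3 and DLX4, where 16.1% of all bins did so. With counts divided by the dispersion it gave 0 in each pair at an unadjusted p under 0.05, against 2.13% of all bins, so neither count is read as a result about the members.

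The mark around DLX5 and DLX6 was part of a longer stretch. The enriched domain holding the span ran over chr7:96482001-96684000, 202 kb, from 153 kb below the span to 29 kb above it, at 4.34 and 4.72. Of the 24073 autosomal domains, 1.03% were as long or longer. That number includes single enriched bins, and 66.2% of the domains were at least 3 kb long. The domain of 202 kb was followed below, after 6 bins that were not enriched, by a domain of 131 kb. This started at 96345001 and stood at 4.38 and 4.70. The length depended on joining: with gaps of at most 2 bins the domains touching the span added up to 22 kb, as separate pieces of 13 and 9 kb, and with gaps of at most 10 bins to 388 kb.

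Outside DLX6 the lower flank was higher than the span itself. It stood at 4.60 and 5.08, with 46 of 50 bins enriched in both libraries, and DLX6-AS1 extends from the pair into this side. By 10 kb steps outwards it held 2.54 and 3.19, 4.55 and 5.26, 4.69 and 5.18, 5.94 and 6.26, and 5.28 and 5.52. The level thus dipped towards the DLX6 end from both sides, with the lowest bin of the whole lower flank and span at that end. Above DLX5, on the side of SDHAF3, a mitochondrial complex II assembly factor gene, the flank stood at 3.35 and 3.63. That flank was less even: 36 of 50 bins were enriched, and the level was 4.03 and 4.26 at 20 to 30 kb from the span but 1.42 and 1.62 at 30 to 40 kb.

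**Figure D3:**
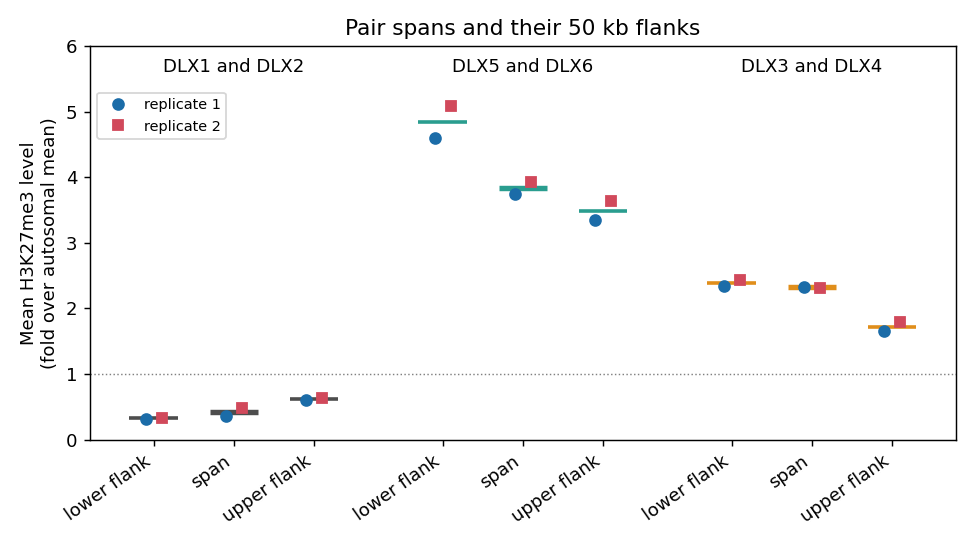
Mean H3K27me3 level (fold over the autosomal mean, y axis) of each pair span and of the 50 kb below (lower flank) and above (upper flank), with a circle for replicate 1, a square for replicate 2 and a line at their mean. The lower flank of DLX5 and DLX6 reaches 5.08, while the 3 regions around DLX1 and DLX2 all stay under 0.7.

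DLX3 and DLX4, the pair with the epidermal regulator DLX3, carried narrow peaks on a raised floor. The highest bin of the span was chr17:48064001-48065000, at 6.95 in replicate 1 and 6.29 in replicate 2, from 153 and 236 reads. It stood in a run of 7 enriched bins, chr17:48063001-48070000, at 4.16 and 3.93, which lay towards DLX3. By contrast the DLX4 side had only isolated enriched bins, the third, sixth and ninth, at 2.05 and 2.18, 2.77 and 2.48, and 2.50 and 2.40. The 8 bins between the ninth bin and that run lay between 0.909 and 2.73 in replicate 1 and between 1.31 and 2.00 in replicate 2. Many bins of the pair thus lay near the minimum of 2, and the number enriched was 17 with no fold minimum and 4 at a minimum of 3.

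At the DLX4 end the outermost bin, chr17:48046001-48047000, held 12 and 16 reads, a level of 0.545 and 0.426. The next bin outside stood at 2.00 and 2.40, and beyond it chr17:48043001-48045000 reached 5.02 and 5.42. The outermost bin at the DLX3 end held 76 and 100 reads, a level of 3.45 and 2.66, after 0.727 and 1.15 at 2 bins further in. Beyond DLX3 the level fell to 0.545 and 0.320 over chr17:48074001-48076000 and rose again to 4.36 and 4.61 over the 6 enriched bins of chr17:48077001-48083000. High and low bins thus followed each other within a few kb on either side of both genes.

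Joined across gaps of at most 5 bins, the domains around DLX3 and DLX4 were shorter and left the middle of the pair uncovered. One of 52 kb, chr17:48003001-48055000, covered the lower flank and the DLX4 end at 2.37 and 2.48, with 21 enriched bins. Another of 20 kb, chr17:48063001-48083000, covered DLX3 at 3.27 and 3.26, with 14 enriched bins. With gaps of at most 2 bins the domains touching the span added up to 17 kb, with at most 10 bins, which joins these domains across the 8 bins between them, to 124 kb, and at a fold minimum of 3 to 5 kb, against 72 kb. The lower flank, towards the tachykinin gene TAC4, stood at 2.34 and 2.43 with 18 of 50 bins enriched. The upper flank, towards the integrin gene ITGA3, stood at 1.65 and 1.79 with 8 of 50.

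Ordered by the 5 kb at each gene's end of the span, DLX6 stood highest at 2.60 ± 0.195, followed by DLX3 at 2.31 ± 0.171 and DLX5 at 2.18 ± 0.275. DLX4 stood at 1.18 ± 0.150, DLX1 at 0.373 ± 0.0383 and DLX2 at 0.110 ± 0.00199 (each SD, n = 2). The values of DLX3, 2.43 and 2.18, overlapped those of DLX5, 1.98 and 2.37, and the lower value of DLX6, 2.46, lay just above the upper value of DLX3. So the first 3 places are not ordered beyond the spread of the libraries, whereas DLX5 and DLX4, DLX4 and DLX1, and DLX1 and DLX2 did not overlap. Taken over the outer 3 bins instead, DLX6 stood at 1.34 and DLX5 stood at 2.61, so the place of DLX6 depends on how much of the span is read.

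Within each marked pair the outermost bin was low at the lower end and high at the upper end, in both libraries. It lay between 0.364 and 0.545 at the DLX6 and DLX4 ends, beside 0.227 and 0.426 at the DLX1 end, and between 2.66 and 4.58 at the DLX5 and DLX3 ends. Under 1-fold in both libraries were 1 bin of DLX5 and DLX6, the outermost at DLX6, 2 of DLX3 and DLX4, both within 4 kb of the DLX4 end, and 15 of DLX1 and DLX2, against 71.6% of all bins. The span edges are whole kb and exact gene starts on hg19 were not used here, so a start may lie in the next bin inwards or outwards.

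**Figure D4:**
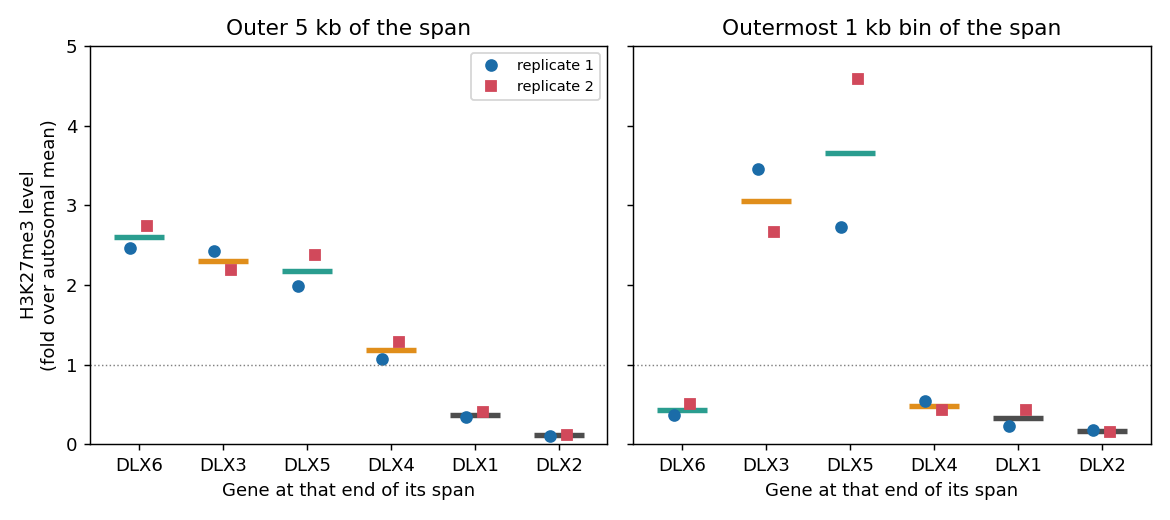
H3K27me3 level (fold over the autosomal mean, y axis) of the 5 kb (left) and of the outermost 1 kb bin (right) at the end of the span where each gene starts (x axis), with a circle for replicate 1, a square for replicate 2 and a line at their mean, coloured by pair. On the left DLX6, DLX3 and DLX5 lie close together above 1.9, and on the right DLX6 and DLX4 drop to between 0.364 and 0.545.

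Bin by bin, the libraries gave like profiles. Across the bins of a span, which share both libraries and neighbouring fragments, Pearson's r between replicates was 0.930 for DLX5 and DLX6 (20 bins), 0.922 for DLX3 and DLX4 (27 bins) and 0.836 for DLX1 and DLX2 (18 bins), as descriptions. The pair levels differed between replicates by 4.78%, 0.580% and 30.3% of their mean. DLX1 and DLX2, with the largest of these differences, held 7.78 reads per bin in replicate 1 and 18 in replicate 2; the part of depth in that difference was not tested. Replicate 1 listed fewer bins, which raised its mean: scaled to bins listed in either library, DLX5 and DLX6 stood at 4.13 and 4.05, DLX3 and DLX4 at 2.56 and 2.38, and DLX1 and DLX2 at 0.390 and 0.494. That scaling divides all pairs of a library by 1 value, so it could not change their order. The higher library changed for DLX5 and DLX6.

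**Figure D5:**
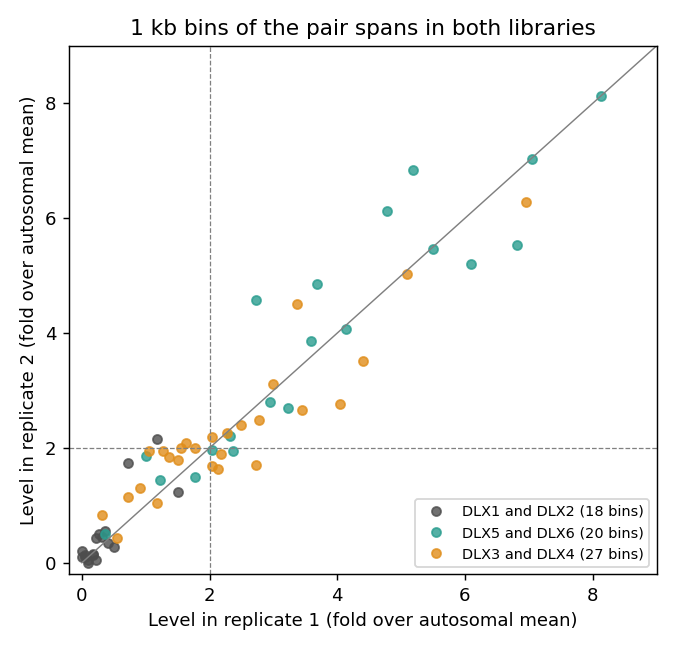
Level of each 1 kb bin of the 3 spans in replicate 1 (x axis) and replicate 2 (y axis), both in fold over the autosomal mean, coloured by pair; the solid line marks equal levels and the dashed lines a level of 2. Bins of DLX1 and DLX2 crowd near 0, and the highest bin of DLX5 and DLX6 lies at 8.14 and 8.13.

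Chromosome 17 beyond 45 Mb, where DLX3 and DLX4 lie, may be gained in these cells, and copy number was not measured. Over 5 kb bins with each 1 kb bin listed in both libraries, the 10th percentile of levels there was 1.125 and 1.12 times that of the other autosomes, and the 99th percentile 1.56 and 1.55 times. Up to 45 Mb the same ratios were 1.21 and 1.20 at the 10th percentile and 1.01 and 1.01 at the 99th. Mean levels of listed bins were 1.33 and 1.34 on chromosome 17, 0.899 and 0.902 on chromosome 2, and 0.868 and 0.859 on chromosome 7. Divided by the 10th percentile ratio, DLX3 and DLX4 gave 1.86 for the ratio of DLX5 and DLX6 to them, against 1.66 before. With each pair scaled to its own chromosome that ratio was 2.57 and the level of DLX3 and DLX4 was 1.73. More copies and more mark per copy cannot be told apart in these values; the order of the 3 pairs was the same in each of them.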

How the data were processed

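The authors deposited raw read counts per bin of 1000 bases for each library, as the deposited column description states, and list only bins with at least 1 read. Alignment used BWA 0.7.12 and hg19 (GRCh37), per the submitters' processing notes; for counting, duplicates and mapping quality, the treatment is not given in the sources used here. Both libraries entered every value, and neither was pooled. Depth was 53187504 and 97031399 reads.

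From the counts, levels, Poisson and binomial tests, domains and windows were computed as described in the results, with adjusted p under 0.05 and a fold minimum of 2. The dispersion of 2.51 came from the split of reads in bins of at least 10 reads. The procedure was tested on simulated counts. These were Poisson counts over an even background with planted bins, so they do not show how the calls behave at the dispersion of these data. The named genes were all 6 members, read at the outer 5 bins of each span. The members, lists and tests were chosen with earlier results of these data known. The replicates came from the labels, which do not name separate cultures, so the spread may be technical. Alternatives were other scalings, fold minimums, gaps, flank widths and single replicates; those chosen after seeing the data were the scaling to bins listed in either library, the outer 3 bins of a gene end, leaving out replicates for gene ends, and the split test with dispersion. Related genes without hg19 positions were not analysed here. Promoter sequences are those of RefSeq, GRCh38.p14, and gene order and neighbours come from its gene table. Software was scipy 1.17.1, numpy 2.4.6, matplotlib 3.10.9 and pandas 2.3.3 under Python 3.11.15.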

Additional observations from a re-analysis of the deposited data

How the results depend on the processing

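No paired analysis was possible because all libraries belong to 1 group. Counts of bins were taken as the same within 1.5 times, and levels, ratios and lengths within 1 SD of the replicates. By this 68 alternatives left a value the same, 37 moved it and 4 turned it. With 2 libraries each lies within 1 SD of their mean, so leaving 1 out could not move a level or ratio. Nor could the chromosome 17 correction move the ratio of DLX1 and DLX2 to DLX5 and DLX6. Such entries are among the 68 and are no sign of stability. The order of the pair levels held in every scaling tried. Dividing all pairs of a library by 1 common value could not change that order. Scaling to each pair's own chromosome and the median over bins could have changed it. Scaled to the autosomal median bin, the levels of DLX1 and DLX2, DLX5 and DLX6, and DLX3 and DLX4 became 1.07, 9.85 and 5.94, and as the median over bins 0.234, 3.69 and 2.02. On its own chromosome DLX5 and DLX6 became 4.45 and DLX3 and DLX4 became 1.73; without the top 0.1% of bins the latter became 2.35. Scaled to bins listed in either library these pairs became 4.09 and 2.47. The ratio of DLX1 and DLX2 to DLX5 and DLX6, 0.108, became 0.0635 with medians. Their ratio to DLX3 and DLX4, 0.180, became 0.116 with medians and 0.267 on own chromosomes. The ratio of DLX5 and DLX6 to DLX3 and DLX4, 1.66, became 1.57 over the central 18 bins, 1.83 with medians, 2.57 on own chromosomes and 1.86 with the chromosome 17 correction. Enriched bins of DLX3 and DLX4, 11, became 4 at a minimum of 3 and 17 with none; those of DLX1 and DLX2 were 0 to 1 with a replicate left out, and their domain length was 0 to 1 kb. The summed length of domains touching DLX5 and DLX6, 202 kb, became 22 and 388 kb with gaps of 2 and 10 bins, 44 kb at a minimum of 3, and 204 to 241 kb in single replicates. That of DLX3 and DLX4, 72 kb, became 17, 124 and 5 kb in those settings and 73 to 91 kb. The span over its 50 kb flanks was 0.882 for DLX1 and DLX2, and became 1.11 with 20 kb and 1.01 with 100 kb; it was 0.923 for DLX5 and DLX6, and became 1.06 with 100 kb. For DLX3 and DLX4 it was 1.13, and became 0.970 with 20 kb and 1.38 with 100 kb. No direction between span and flanks therefore held over all widths for any pair. For none of these changes was the cause tested. With 140 and 324 reads, DLX1 and DLX2 had the widest counting intervals relative to their level.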

Other observations

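Over 500 kb on each side, the neighbourhoods of the pairs differed as the spans did. Around DLX1 and DLX2, 3 of 1018 bins of 1 kb were enriched in both libraries (0.295%), against 10.7% of chromosome 2, and the mean level was 0.352 in replicate 1 and 0.373 in replicate 2. Around DLX5 and DLX6 the figure was 485 of 1020 bins (47.5%), against 10.4% of chromosome 7, at 2.41 and 2.61. That neighbourhood was lopsided: 347 of the 500 bins below DLX6 were enriched, at 3.24 and 3.53, and 124 of the 500 above DLX5, at 1.52 and 1.63. Around DLX3 and DLX4 it was 208 of 1027 bins (20.3%), against 17.6% of chromosome 17, at 1.35 and 1.42. The next enriched domain of at least 10 kb below DLX4 lay 62 kb away over 25 kb, and the next above DLX3 lay 206 kb away over 20 kb.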
